A study of Mus musculus with 16 samples.

Results

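The genes described here are 10 regulators and structural markers of muscle formation: the myogenic regulatory factors Myod1, Myog, Myf5 and Myf6, the satellite cell factor Pax7, the transcription factors Mef2c and Runx1, the embryonic myosin heavy chain Myh3, the perinatal myosin heavy chain Myh8, and desmin (Des). The list names genes and uses no measured threshold, but it was drawn up with earlier results of these data known. Every non-control probe whose RefSeq accession belongs to one of them was taken. This gave 13 probes of 55681, with 2 probes each for Myh3, Myh8 and Runx1 and 1 for each of the other genes. Of the 10 genes, 9 passed the filter on dim probes and were tested among 28964 genes. Myf5 did not pass, because its probe was well above background on 0 of 16 arrays.

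Skeletal muscle repairs itself from satellite cells, which sit beside the fibres and carry Pax7. On activation they express Myf5 and Myod1, then Myog as they leave the cell cycle, and they fuse into fibres that first make embryonic and perinatal myosins and later adult ones. Fibres that lose their nerve supply also raise Myog, Myod1 and Runx1, together with embryonic subunits of the acetylcholine receptor. Myf6 is the family member most abundant in adult fibres, Mef2c works with the MyoD family on muscle promoters, and desmin is the intermediate filament that ties the Z-discs together.

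Total RNA from skeletal muscle of male mice aged 21 to 23 weeks was hybridised to 16 one-colour Agilent arrays, 4 in each of 4 groups. CB1KO mice carried a floxed cannabinoid 1 receptor gene (Cnr1) and a Cre recombinase driven by the ACTA1 promoter, so deletion was aimed at muscle fibres. WT mice were the control littermates, for which the growth protocol also lists Cre, so whether the controls carried it is unclear. The WT_SD and CB1KO_SD mice ate a standard diet with 16.7% of energy as fat and 12.4% as sugar, and the WT_HFHS and CB1KO_HFHS mice ate a high fat, high sugar diet with 49.2% and 32.2%, for 15 weeks. The treatment protocol also mentions assignment to vehicle or S961, which the sample labels do not give. The muscle dissected is not named in the labels.

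Precision is set by having 4 arrays in a group. On each array 56.7% to 75.04% of spots were well above background. The SD arrays shared 1 slide and the HFHS arrays another, which means that slide and diet cannot be told apart. WT arrays lay in row 1 and CB1KO arrays in row 2, so row position and genotype cannot be told apart. CB1KO_SD replicate 2 and CB1KO_HFHS replicate 1 stood apart in the spread of their log2 signal (SD 2.86 and 3.97), and member calls that turn on them are also given without them. Cnr1 itself, measured by 1 dim probe, lay between -3.69 and -1.49 on all arrays and did not separate the genotypes (log2 fold change -0.19 ± 0.32 SE averaged over diets, adjusted p = 0.794 by limma). Where that probe lies relative to the floxed part is not known, and cells other than fibres also carry the gene, so this probe does not check the labels. Levels of 7 skeletal muscle fibre markers averaged 8.65 to 9.76 on every array. Nothing in the labels says whether the samples of a group came from separate animals, and p-values measure the spread between these samples. In whole muscle, fewer cells of a type and less RNA per cell cannot be told apart.

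The RefSeq promoter windows of Myog, Myh3 and Myh8 are shown because Myog and Myh3 are a factor and a developmental myosin with large genotype differences here, and Myh8 is the other developmental myosin, whose main probe gave an interval that included 0. Each window runs from 250 bases before to 50 bases after the gene start in build GRCm38.p6, on the plus strand, and capitals mark E-boxes (CANNTG, a palindrome, so both strands are covered), the letters that MyoD family factors bind. The array design uses another build, and no probe position is compared with these windows.
Myog (chr1:134289754-134290053): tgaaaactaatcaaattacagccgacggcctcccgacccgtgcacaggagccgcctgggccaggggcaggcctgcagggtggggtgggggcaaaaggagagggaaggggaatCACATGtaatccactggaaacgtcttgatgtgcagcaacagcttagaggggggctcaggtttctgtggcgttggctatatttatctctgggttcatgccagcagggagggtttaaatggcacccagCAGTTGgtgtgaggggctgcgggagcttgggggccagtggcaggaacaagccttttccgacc
Myh3 (chr11:67078050-67078349): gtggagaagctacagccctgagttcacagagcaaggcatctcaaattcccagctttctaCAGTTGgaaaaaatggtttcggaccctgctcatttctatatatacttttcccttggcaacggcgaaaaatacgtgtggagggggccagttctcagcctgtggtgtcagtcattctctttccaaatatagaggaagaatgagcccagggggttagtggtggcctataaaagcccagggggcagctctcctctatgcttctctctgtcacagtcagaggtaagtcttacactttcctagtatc
Myh8 (chr11:67276874-67277173): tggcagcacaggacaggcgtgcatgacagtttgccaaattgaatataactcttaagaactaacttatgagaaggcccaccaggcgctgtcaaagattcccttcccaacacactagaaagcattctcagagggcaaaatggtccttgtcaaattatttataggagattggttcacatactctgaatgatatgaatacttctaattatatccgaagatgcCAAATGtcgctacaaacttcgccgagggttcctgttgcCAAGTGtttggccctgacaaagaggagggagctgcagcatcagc
The Myog window holds 2 E-boxes, the Myh3 window 1 and the Myh8 window 2. CANNTG occurs in 72.3% of all 32851 windows, so its presence sets none of these genes apart. The letters CTANNNNTA, a core of MEF2 sites searched on both strands, occur once in the Myog window, beginning at position -64 from the gene start, once in the Myh3 window and at 2 places in the Myh8 window. They are found in 21.0% of all windows. Windows were found for 8 of the 10 genes, 11 in all. CTANNNNTA is in 6 of these 11 windows, which belong to 6 of the 8 genes. TGTGGT, the core of Runx sites, is in the Myh3 window and in 16.8% of all windows. Such matches describe the letters only. Myh3 and Myh8 stand in 1 cluster on chromosome 11 with 3 other protein-coding genes between them, Myh2, Myh1 and Myh4, and Myf5 and Myf6 are direct neighbours on chromosome 10.

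All levels below are log2 processed intensities minus the array's 75th percentile, and since each probe has its own brightness they are compared only within a probe. Fold changes are on the log2 scale with standard errors from limma, and p-values were adjusted by the Benjamini-Hochberg method across the whole set of tested genes, a call meaning an adjusted p under 0.05.

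Averaged over both diets, 7 of the 9 members tested were higher in CB1KO muscle and 5 of them, Myod1, Myog, Myf6, Runx1 and Myh3, had an unadjusted p under 0.05. None passed the adjusted threshold. The count is 0 of 9 at an adjusted p under 0.05, where 0.763% of all genes were called, and 5 of 9 higher at an unadjusted p under 0.05, where 3.74% of all genes were. The median member was 0.40 higher, while the median of all genes was 0.13 lower in CB1KO muscle. Other settings called between 0 and 5 members, and arrays weighted by their quality gave 5. Without both arrays of unusual spread, 2 members were called, Myod1 and Myh3. The count of all genes called also moved, from 59 to 2157 between settings, so member counts of other settings cannot be set against 0.763%.

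**Figure D1:**
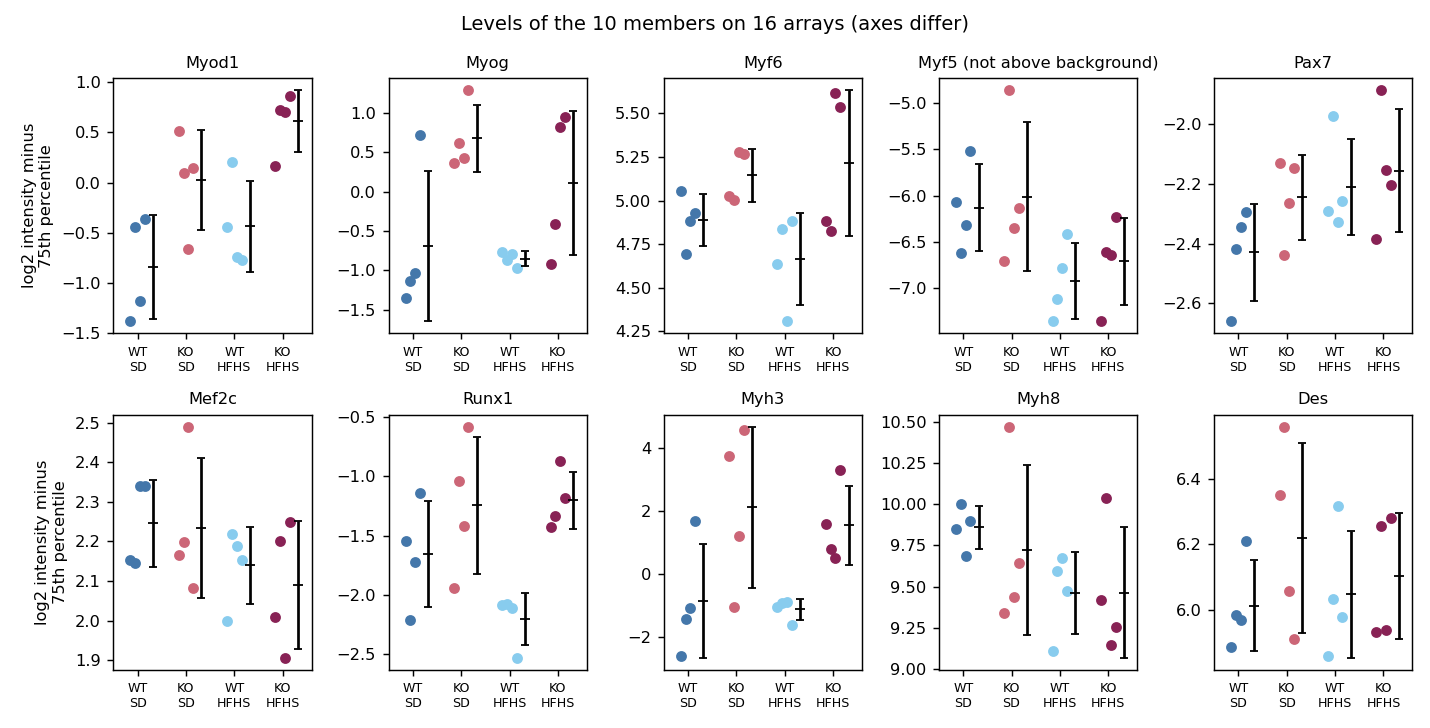
Level of each of the 10 genes on every array (log2 intensity minus the 75th percentile, y axis, a different range in each panel) in the 4 groups; points are arrays, in order of replicate number, and black bars give the mean and SD of 4 arrays. Myod1, Myog, Runx1 and Myh3 sit higher in CB1KO groups with overlap in most, while the 2 genotypes overlap on each diet for Mef2c, Myh8 and Des.

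Myod1, the factor that commits cells to the muscle lineage, was measured by 10 spots on each array, whose median SD within an array was 0.0654. It stood at -1.39, -0.44, -1.18 and -0.36 on the WT_SD arrays and at 0.52, 0.10, -0.66 and 0.14 on the CB1KO_SD arrays. It stood at -0.45, 0.21, -0.74 and -0.77 on the WT_HFHS arrays and at 0.16, 0.73, 0.71 and 0.86 on the CB1KO_HFHS arrays. On each diet 1 WT or CB1KO array crossed into the other group's range: CB1KO_SD replicate 3 lay below 2 WT_SD arrays, and WT_HFHS replicate 2 lay above CB1KO_HFHS replicate 1. The averaged difference was 0.96 ± 0.22 (adjusted p = 0.0625 by limma), a 1.94-fold higher level. Whether it passed 0.05 turned on the processing: it did in 8 of 13 other settings (adjusted p from 0.0248 to 0.0891). It also did in 2 of the 16 fits leaving out 1 array (from 0.0261 to 0.143). The difference was 0.87 ± 0.31 on SD (adjusted p = 0.420) and 1.05 ± 0.31 on HFHS (adjusted p = 0.242).

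Myog, which drives the differentiation of myoblasts, was also measured by 10 spots, with a median SD of 0.0710 within an array. Its levels were -1.35, -1.13, -1.03 and 0.72 in WT_SD and 0.36, 0.62, 0.43 and 1.29 in CB1KO_SD. They were -0.77, -0.87, -0.79 and -0.97 in WT_HFHS and -0.92, -0.41, 0.82 and 0.95 in CB1KO_HFHS. WT_SD replicate 4 lay among the CB1KO_SD arrays, and CB1KO_HFHS replicate 1 lay among the WT_HFHS arrays. The averaged difference was 1.17 ± 0.33 (adjusted p = 0.118 by limma), and without WT_SD replicate 4 it was 1.41 with an adjusted p of 0.0354. That was the only 1 of the 16 fits leaving out 1 array with an adjusted p under 0.05, and the highest was 0.237. On SD the difference was 1.37 ± 0.47 (adjusted p = 0.401), and on HFHS it was 0.96 with a 95% interval from -0.04 to 1.96.

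Myf6, the MyoD family member of mature fibres, lay between 4.69 and 5.05 in WT_SD and between 5.004 and 5.28 in CB1KO_SD. On HFHS it stood at 4.63, 4.84, 4.31 and 4.88 in WT and at 4.88, 4.82, 5.62 and 5.53 in CB1KO muscle, where replicates 3 and 4 were the high arrays. The averaged difference was 0.40 ± 0.14 (adjusted p = 0.190 by limma) and the HFHS difference 0.55 ± 0.19 (adjusted p = 0.361).

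Myf5, the earliest factor of the family, was not well above background on any array, and its spots read -7.36 to -4.86. No fold is given for it. Pax7, the satellite cell factor, was well above background on 15 of 16 arrays and kept within -2.66 and -1.89. Its levels in WT_SD ran from -2.66 to -2.30 and in CB1KO_SD from -2.44 to -2.13, and on HFHS they ran from -2.33 to -1.97 in WT and from -2.38 to -1.89 in CB1KO. The averaged Pax7 difference was 0.12 ± 0.10 (adjusted p = 0.576 by limma), with a 95% interval from -0.09 to 0.33.

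Mef2c lay between 1.91 and 2.49 on all 16 arrays, with every group overlapping every other. Its averaged difference was -0.03 ± 0.09 (adjusted p = 0.882 by limma, 95% interval -0.21 to 0.15), and its sign turned to positive with normexp, under quantile normalization and with the authors' deposited table.

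Runx1, a transcription factor that denervated fibres express, has 2 probes for different RefSeq transcripts, and both were well above background on all 16 arrays. The brighter probe, A_55_P2183438 (NM_001111023), stood for the gene. It read -1.55, -2.21, -1.72 and -1.14 in WT_SD and -1.94, -1.04, -1.42 and -0.58 in CB1KO_SD. On HFHS it read -2.09, -2.08, -2.11 and -2.53 in WT and -1.42, -1.33, -0.87 and -1.19 in CB1KO, so that all 4 CB1KO arrays lay above all 4 WT arrays there, whereas the SD groups overlapped. The averaged difference was 0.70 ± 0.19 (adjusted p = 0.108 by limma) and the HFHS difference 1.00 ± 0.27 (adjusted p = 0.206).

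The other Runx1 probe, A_51_P206585 (NM_009821), was past the threshold when each probe was tested on its own. Its levels were -2.31, -2.34, -2.29 and -1.69 in WT_SD, and -1.87, -1.93, -2.22 and -1.09 in CB1KO_SD. On HFHS they were -2.70, -2.56, -2.91 and -3.07 in WT and -1.49, -1.496, -0.88 and -0.88 in CB1KO. The Runx1 level at this probe rose by 1.62 ± 0.25 in CB1KO muscle on HFHS (adjusted p = 0.0185 by limma over 40653 probes) and by 1.00 ± 0.18 averaged over diets (adjusted p = 0.0213). Among all probes 0.234% were called on HFHS and 0.787% averaged over diets, and this was 1 of the 12 member probes tested in each. The call was lost under quantile normalization (adjusted p = 0.0678 on HFHS and 0.0631 averaged) with slide as a block (0.0629 averaged), and when some single arrays were left out: WT_HFHS replicates 1 to 4 or CB1KO_HFHS replicate 3 or 4 on HFHS (up to 0.0875), and WT_SD replicate 1 or 3, WT_HFHS replicate 4 or CB1KO_HFHS replicate 3 averaged (up to 0.0563). On SD the same probe differed by 0.38 ± 0.25 (unadjusted p = 0.149), and its genotype-by-diet interaction was 1.24 ± 0.35, with an unadjusted p of 0.00330 in limma and an adjusted p of 1.00. The mean level of 7 macrophage markers ran from 0.74 to 1.64 in WT_HFHS and from 1.43 to 2.40 in CB1KO_HFHS. All 7 were well above background on every HFHS array, and the part of these cells, which also carry Runx1, in the difference was not tested. Of 5 neutrophil markers, none was called and 3, Retnlg, S100a8 and S100a9, were higher at an unadjusted p under 0.05 averaged over diets, with a list median of 0.77. Among all genes 3.74% were higher at that level. The mean of the 5 neutrophil markers ran from -1.03 to -0.85 in WT_SD and from -0.83 to 1.23 in CB1KO_SD, without overlap. On HFHS it overlapped, at -0.69 to -0.39 in WT and -0.81 to 0.47 in CB1KO. The summed level (log2 of the sum) is nearly that of Csf3r alone, which read 6.22 to 7.30. It overlapped between the genotypes on SD, at 6.82 to 7.30 in WT and 6.28 to 7.20 in CB1KO, and on HFHS, at 6.90 to 7.23 and 6.83 to 7.14. Mpo was well above background on 4 of 16 arrays and the other 4 markers on all 16. The mean of 5 smooth muscle markers ran from 2.96 to 3.66 in WT_HFHS and from 2.65 to 2.91 in CB1KO_HFHS, without overlap, with all 5 well above background on every array. None of the 5 was called on HFHS and 2 were lower at an unadjusted p under 0.05, where 5.98% of all genes were lower. The part of neutrophils and smooth muscle in the members' differences was not tested.

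Myh3, the embryonic myosin heavy chain, had the largest difference in size among the members tested and the widest spread. Its main probe, A_55_P2066440, read -2.60, -1.41, -1.08 and 1.69 in WT_SD and 3.77, -1.05, 1.21 and 4.58 in CB1KO_SD. WT_SD replicate 4 lay above CB1KO_SD replicates 2 and 3, so the SD groups overlapped. It read -1.05, -0.93, -0.88 and -1.62 in WT_HFHS and 1.60, 0.80, 0.51 and 3.31 in CB1KO_HFHS, with all 4 CB1KO arrays above all 4 WT arrays. The averaged difference was 2.83 ± 0.79, a 7.10-fold higher level (adjusted p = 0.117 by limma). It was 2.98 ± 1.12 on SD (adjusted p = 0.458) and 2.67 ± 1.12 on HFHS (adjusted p = 0.465). Without CB1KO_SD replicate 2 the averaged difference was 3.36 with an adjusted p of 0.0288, and without both arrays of unusual spread it was 3.35 with an adjusted p of 0.0314. Of the 16 fits leaving out 1 array, only the 1 without CB1KO_SD replicate 2 had an adjusted p under 0.05, and the highest was 0.233. The second Myh3 probe, A_55_P2083406, gave 2.70 ± 0.76 averaged over diets, and the probes followed each other across the 16 arrays (Pearson r = 0.998). Binding of either probe to other myosin transcripts was not checked, so these values are probe readings under the name Myh3.

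Myh8, the perinatal myosin heavy chain, has 2 probes, and neither was called higher or lower in CB1KO muscle. Its main probe, A_51_P143296, lay between 9.69 and 10.003 in WT_SD, 9.34 and 10.47 in CB1KO_SD, 9.11 and 9.67 in WT_HFHS, and 9.14 and 10.04 in CB1KO_HFHS. The averaged difference was -0.07 ± 0.17 (adjusted p = 0.869 by limma, 95% interval -0.44 to 0.31), and it turned positive with normexp and under quantile normalization. The second probe, A_55_P2120161, gave -0.34 ± 0.10 (adjusted p = 0.148, 95% interval -0.56 to -0.12 before any adjustment), and the 2 Myh8 probes did not follow each other (r = -0.09 over 16 arrays). On SD the second probe differed by -0.44 ± 0.15 (limma, unadjusted p = 0.00981, adjusted p = 0.403) and on HFHS by -0.24 ± 0.15 (unadjusted p = 0.117). Skeletal myosin genes are near-identical in much of their sequence and the probe sequences were not analysed here, so what either Myh8 probe reads is uncertain.

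Des, measured by 10 spots with a median SD of 0.0521, lay between 5.86 and 6.56 on all arrays, and all groups overlapped. Its averaged difference was 0.13 ± 0.11 (adjusted p = 0.602 by limma, 95% interval -0.11 to 0.37).

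**Figure D2:**
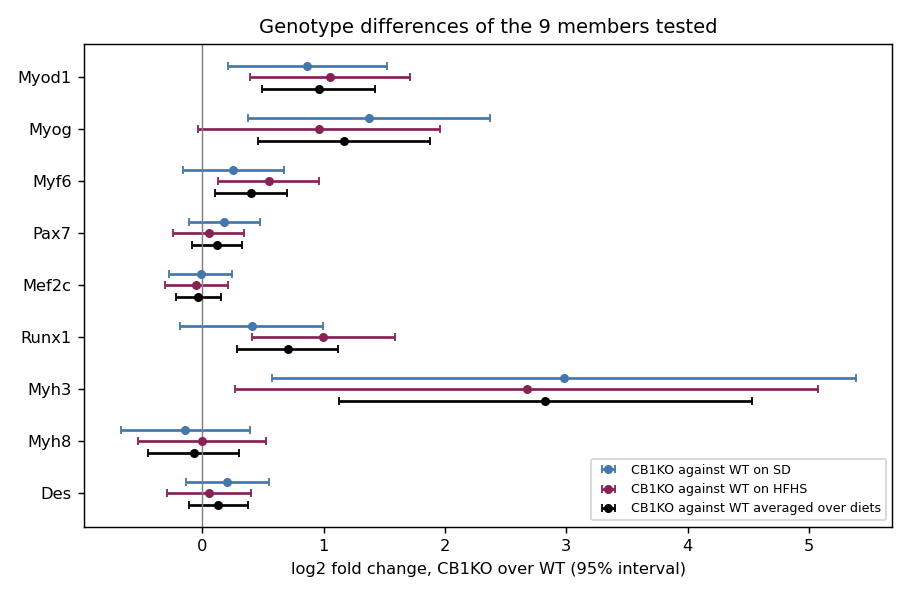
Log2 fold change of CB1KO over WT (x axis) for the 9 members tested, on SD, on HFHS and averaged over diets; bars are 95% intervals of the limma fit, not adjusted for the number of genes. Averaged over diets, the intervals of Myod1, Myog, Myf6, Runx1 and Myh3 lie above 0 and those of Pax7, Mef2c, Myh8 and Des cross it.

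**Figure D3:**
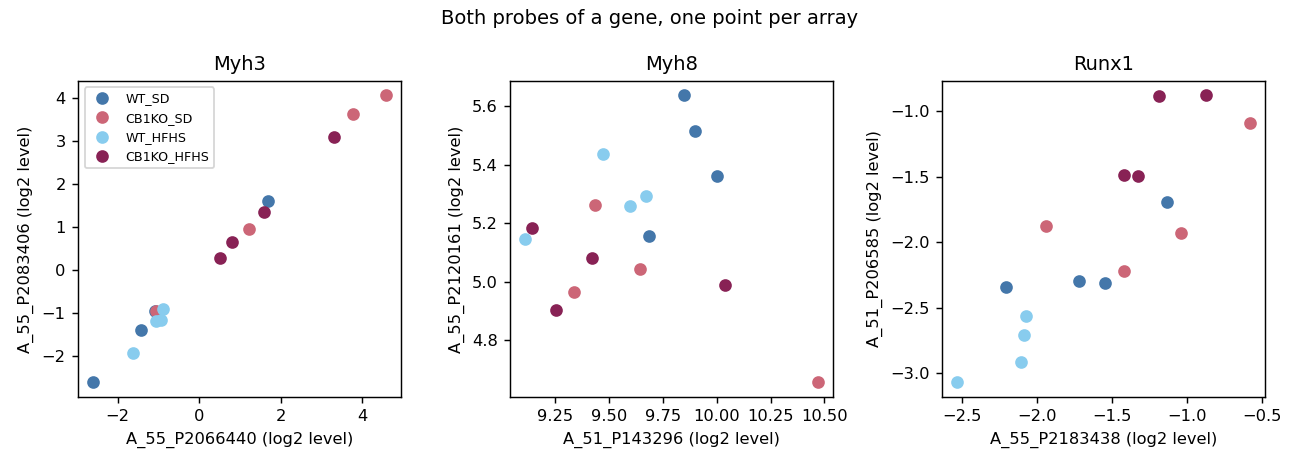
Levels of both probes of Myh3, Myh8 and Runx1 on the 16 arrays (log2 intensity minus the 75th percentile on both axes), coloured by group. The Myh3 probes fall on 1 line, the Runx1 probes follow each other loosely (r = 0.855), and the Myh8 probes do not.

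Within each diet, the genotype comparison on SD called 0 of 9 members and 0.00345% of all genes, and the comparison on HFHS called 0 of 9 and 0.249%. At an unadjusted p under 0.05, 3 members were higher on SD, against 2.18% of all genes, and 4 were higher on HFHS, against 3.42%. All 4 CB1KO arrays lay above all 4 WT arrays for 0 of the 9 members on SD, where 1.03% of all genes did so, and for 2 of the 9 on HFHS, Runx1 and Myh3, where 3.16% did. With 1 probe per gene, no member had an unadjusted p under 0.05 for the genotype-by-diet interaction in limma, whereas the other Runx1 probe did, as given above. All members had an interaction adjusted p of 1.00, with 0% of all genes called, so a difference of the genotype effect between diets was not detectable for these genes.

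Diet itself moved no member past the threshold. In WT, 0 of 9 members were called for HFHS against SD, with 0% of all genes called, and in CB1KO 0 of 9, with 0.0276%. With 1 probe per gene, no member had an unadjusted p under 0.05 in either genotype, and member differences ran from -0.55 to 0.41 in WT and from -0.57 to 0.59 in CB1KO. The other Runx1 probe, A_51_P206585, differed by -0.65 ± 0.25 in WT (limma, unadjusted p = 0.0199, adjusted p = 0.764) and by 0.59 ± 0.25 in CB1KO (unadjusted p = 0.0322, adjusted p = 0.465). For the main Myh8 probe, all 4 WT_HFHS arrays lay below all 4 WT_SD arrays, which was so for 3.36% of all genes. The difference there was -0.40 ± 0.25 (limma, unadjusted p = 0.129). The second Myh8 probe overlapped, at 5.16 to 5.64 in WT_SD and 5.15 to 5.44 in WT_HFHS, with a difference of -0.13 ± 0.15 (limma, unadjusted p = 0.375).

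Several genes of a list for fusion and differentiation, which also holds acetylcholine receptor subunits and Musk, rose in CB1KO muscle. Of the 20 genes tested, 3 rose past the threshold averaged over diets and none fell past it. At an unadjusted p under 0.05, 12 were higher, among them the receptor subunits Chrna1, Chrnb1, Chrnd and Chrne. The list median was 0.60 against -0.13 for all genes. Among all genes 0.763% were called in that comparison and 3.74% were higher at an unadjusted p under 0.05. Chrna1, an acetylcholine receptor subunit of the fibre membrane, read 1.89, 1.55, 2.15 and 2.83 in WT_SD and 3.88, 2.69, 2.77 and 4.07 in CB1KO_SD. It read 2.10, 2.12, 2.50 and 2.30 in WT_HFHS and 3.50, 4.87, 5.57 and 5.43 in CB1KO_HFHS, above every WT array. Chrna1 rose by 1.92 ± 0.31 averaged over diets (adjusted p = 0.0162 by limma), and it kept an adjusted p under 0.05 in all alternatives run for that comparison. On HFHS alone Chrna1 rose by 2.59 ± 0.44 (adjusted p = 0.0246), a call lost with only the groups compared (adjusted p = 0.0852) and without any 1 of WT_HFHS replicates 1 to 4 or CB1KO_HFHS replicates 2 to 4 (up to 0.112).

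Tnnt2, the troponin T of the heart and of embryonic muscle, rose by 2.69 ± 0.50 (adjusted p = 0.0290 by limma). Cdkn1a, the cell cycle inhibitor that MyoD switches on as myoblasts leave the cycle, rose by 1.53 ± 0.29 (adjusted p = 0.0314). Each call was lost in 10 of the 16 fits that left out 1 array, with an adjusted p of up to 0.0746 for Tnnt2 and up to 0.0800 for Cdkn1a. For both genes these were the fits without WT_SD replicate 1 or 3, CB1KO_SD replicate 1 or 4, WT_HFHS replicate 1, 2 or 4, or CB1KO_HFHS replicate 3 or 4, and in addition CB1KO_HFHS replicate 2 for Tnnt2 and WT_SD replicate 4 for Cdkn1a. The mean of a gene's probes gave 0.73 for Cdkn1a (adjusted p = 0.108). The fusion proteins Mymk (myomaker) and Mymx differed by 1.34 ± 0.46 and 2.75 ± 0.65, with adjusted p-values of 0.192 and 0.0697.

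**Figure D4:**
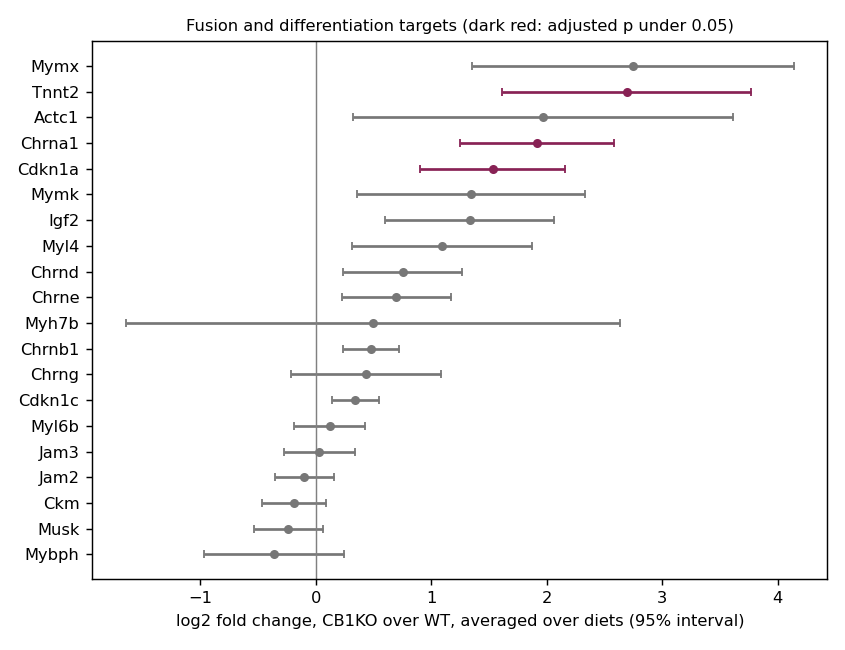
Log2 fold change of CB1KO over WT averaged over diets (x axis) for the 20 genes listed for fusion and differentiation, receptor subunits included, with 95% intervals of the limma fit. Chrna1, Tnnt2 and Cdkn1a, in dark red, had adjusted p-values under 0.05, and most of the other estimates lie above 0.

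Among 9 genes other than the members that respond to denervation, 2 rose past the threshold, none fell past it and 2 were lower at an unadjusted p under 0.05, with a list median of -0.11. The share of all genes called was 0.763%, and 11.3% were lower at that unadjusted level. Sln, sarcolipin, an inhibitor of the calcium pump, rose by 4.27 ± 0.50 averaged over diets (adjusted p = 0.0022 by limma) and by 5.85 ± 0.71 on HFHS (adjusted p = 0.00459, or 0.0638 with only the groups compared, which ends the HFHS call). It read 1.44, 1.26, 0.83 and 0.87 in WT_SD, 3.85, 3.14, 3.32 and 4.79 in CB1KO_SD, 2.47, 0.55, 1.20 and -0.40 in WT_HFHS, and 4.47, 7.45, 8.04 and 7.28 in CB1KO_HFHS. Gadd45a, a growth arrest gene, rose by 0.64 ± 0.12 averaged (adjusted p = 0.0285) and by 1.09 ± 0.17 on HFHS (adjusted p = 0.0177). The averaged call was lost with slide as a block (adjusted p = 0.0868) and in 7 of the 16 fits that left out 1 array (up to 0.0753), those lacking CB1KO_HFHS replicate 3 or 4, WT_HFHS replicate 1, 2 or 4, CB1KO_SD replicate 4, or WT_SD replicate 1. The HFHS call was lost without WT_HFHS replicate 1 or 2 or CB1KO_HFHS replicate 3 or 4 (up to 0.0867). Trim63, an atrophy ubiquitin ligase, differed by -0.51 ± 0.21 (adjusted p = 0.268).

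Among the further genes listed with the members in this paragraph none was called, though some were under other settings. Srf passed in 4 of 13 of these (lowest adjusted p = 0.0337) and without CB1KO_SD replicate 3, and Cbfb passed in 3 of 13 (lowest adjusted p = 0.00966), among them the fit without both arrays of unusual spread, and without CB1KO_HFHS replicate 1. Runx1t1 passed in 2 of 13 (lowest adjusted p = 0.0171 by limma), Runx3 in 1 (0.0321) and Sdc4 in 1 (0.0404). Of 26 partners and inhibitors of the MyoD family tested, of 27 listed, none was called and 4 were lower at an unadjusted p under 0.05, where 11.3% of all genes were lower. Among these, Srf, serum response factor, differed by -0.39 ± 0.10 (adjusted p = 0.0774 by limma), Hdac5 by -0.25 ± 0.09 and Six4 by -0.26 ± 0.10. Of 4 genes listed with Runx1 none was called and 3 were lower at that level. They were Cbfb, the partner subunit of Runx1, at -0.83 ± 0.21 (adjusted p = 0.0863 by limma), Runx1t1 at -0.44 ± 0.14, and Runx3, of the same family as Runx1, at -0.31 ± 0.13. Of 16 satellite cell genes none was called, with Sdc4 at 0.38 ± 0.16, Heyl at -0.28 ± 0.12 and Met at -0.19 ± 0.09 averaged over diets. On SD 4 of the 16, Calcr, Chrdl2, Hes1 and Sdc4, were higher at an unadjusted p under 0.05, where 2.18% of all genes were, and none was lower. On HFHS none was higher and 2 were lower at that level, where 5.98% of all genes were lower. None of 12 intermediate filament and Z-disc genes was called, with Krt18 at 1.32 ± 0.48, Synm at -0.41 ± 0.16 and Ankrd1 at 0.62 ± 0.28.

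The adult myosins gave no call either. Of 6 tested, Myh6 differed by -0.73 ± 0.45, Myh4 by -0.12 ± 0.16 and Myh7, the slow myosin, by 0.97 ± 1.504 averaged over diets. Leaving out 1 array moved the averaged Myh7 difference between 0.14 and 1.82. By diet, 5 of the 6 adult myosins were above 0 on SD (median 0.38) and 0 of 6 on HFHS (median -1.31), where 1, Myh6, was lower at an unadjusted p under 0.05 (-1.89 ± 0.63, adjusted p = 0.323 by limma). The median of all genes was -0.12 on SD and -0.14 on HFHS, and 5.98% of all genes were lower at that unadjusted level on HFHS. The mean level of the 6 was 0.24 on CB1KO_HFHS replicate 1, an array of unusual spread. It was 5.28, 3.33 and 3.78 on replicates 2, 3 and 4 of that group, and 3.10 to 5.50 in WT_HFHS. The HFHS values of the 6 therefore lean on replicate 1, and values without it are not given here. Myh7 differed by 4.04 ± 2.13 on SD and by -2.09 ± 2.13 on HFHS, and its interaction of -6.12 ± 3.01 had an adjusted p of 1.00. The slow fibre markers varied widely among WT arrays: their mean ran from -1.04 to 3.75 in WT_SD and from 3.90 to 5.70 in CB1KO_SD, without overlap, but from -0.22 to 5.79 in WT_HFHS and from -1.51 to 5.49 in CB1KO_HFHS. All 7 were well above background on every array. The part of fibre type in the members' differences on SD was not tested.

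Across the 16 arrays, the genes whose levels followed Myh3 most closely were Tubb2b (r = 0.949), Mymk (r = 0.942) and Mmel1 (r = 0.929). Those nearest to Myog were Gm13286 (r = 0.878), Slc16a13 (r = 0.862) and Mt1 (r = 0.844), and those nearest to Myod1 were Ncs1 (r = 0.895), Zfp346 (r = 0.886) and Map3k9 (r = 0.871). Runx1 was nearest to Mefv (r = 0.849), Lrrc25 (r = 0.845) and Krt18 (r = 0.845), and Myf6 to Trp53inp1, Zfp934 and Ctxn3 (r from 0.808 to 0.825). Myh8's main probe followed Tnnc2 (r = 0.993), Aldoa (r = 0.990) and Myh4 (r = 0.988), genes of fast fibres or, for Myh4, a near-identical fast myosin, and it also moved with the signal spread of the arrays (r = -0.66). Mef2c was nearest to Gm9465, Prkar2a and Rab22a (r from 0.814 to 0.845), and Des to Gm5779, Hspbp1 and Mief2 (r from 0.929 to 0.956). These correlations are descriptions over arrays that fall into 4 groups and share slides.

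**Figure D5:**
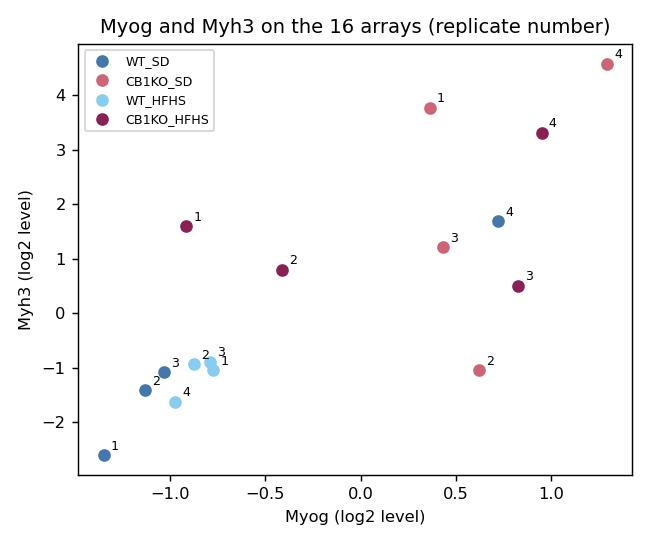
Level of Myog (x axis) against Myh3 (y axis) on the 16 arrays (log2 intensity minus the 75th percentile), coloured by group and numbered by replicate. The WT arrays gather at low levels of both, except WT_SD replicate 4, and the CB1KO arrays spread to high levels of one or both.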

How the data were processed

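Per the file headers, Feature Extraction 11.5.1.1 produced the deposited spot intensities, corrected for background within each array. The authors' series table gives each spot a score, which equalled the array's centred and scaled log2 intensity to within 0.00502. Groups follow the sample titles, since the diet tag disagrees with them for CB1KO_SD and WT_HFHS. Each array's log2 intensities were set relative to their 75th percentile over 59305 non-control spots. Outlier spots (0.299% of values) were left out, repeated spots averaged, probes kept if at least 4 arrays read them well above background, and the brightest probe taken per gene. All 16 arrays entered 1 model with a mean per group (R 4.3.3, limma 3.58.1, lmFit and eBayes, two-sided, Benjamini-Hochberg over all genes). On simulated arrays of 28882 genes, the averaged comparison recovered 52% of genes changed by 1 and 83% of those changed by 2 (log2). The simulated noise was independent between genes, so shifts that many genes of an array share were left out and the recovery on the real arrays may differ. Symbols and promoter sequences come from RefSeq. Members, lists and the rule for genes named were chosen with earlier results of these data known. That rule names all members, the 3 genes of each list with the smallest p averaged over diets, any list gene called, and the 3 genes most correlated with each member. Mymx was named after its values were seen.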

Additional observations from a re-analysis of the deposited data

Results flagged for a closer look

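In 3 of 52 sets of 4 arrays (13 probes in 4 groups), 1 array lay far from its group by Dixon's test at the 95% level, which chance gives in about 1 set of 20. Myog read 0.72 on WT_SD replicate 4, against -1.03 on the nearest array of that group. Runx1 probe A_51_P206585 read -1.69 on the same array, against -2.29 on the nearest. On that array the mean of 5 adipocyte markers was -1.89, against 2.26 to 3.25 on the other WT_SD arrays, and the mean of 7 macrophage markers was 2.05, against 0.74 to 1.05. Their part in these readings was not tested. Runx1 probe A_55_P2183438 read -2.53 on WT_HFHS replicate 4, below -2.11 on the nearest.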

How the results depend on the processing

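The count of members called was 0 in every alternative for SD, the interaction and both diet comparisons. Averaged over diets it was 2 with normexp background correction and quantile normalization, 1 with quantile normalization, 2 with the authors' table, 1 with the filter on all arrays, 1 with the mean of a gene's probes, 1 with each probe on its own, 1 with trend and robust variances, 5 with array weights, 2 without both arrays of unusual spread and 3 with signal spread as a covariate. It was 0 with no filter, with outlier spots kept and with slide as a block, and 0 to 1 with single arrays left out. On HFHS it was 1 with the mean of probes, 1 with each probe on its own and 4 with array weights. The cause was not tested. Of member probes tested on their own, 1 was called on HFHS, 0 with quantile normalization, 5 with array weights and 0 to 1 with single arrays left out. Averaged over diets 1 was called, 2 with normexp, 3 with the authors' table, 2 with the filter on all arrays, 2 with trend, 7 with array weights, 0 with slide as a block, 4 without both arrays, 4 with signal spread as a covariate and 0 to 3 with single arrays left out. The sign turned for Myh8 (0.043 with normexp, 0.034 with quantile normalization) and for Mef2c (0.028 with normexp, 0.016 with quantile normalization, 0.048 with the authors' table, and from -0.073 to 0.00063 with single arrays left out). All genes called averaged over diets ran from 59 to 2157, on HFHS from 15 to 2421 and on SD from 0 to 227. Replicate numbers did not pair the samples (8 of 24 same-numbered pairs correlated over 0.1). With the replicate block 0 members were called in each comparison, and the calls of Tnnt2 (adjusted p = 0.0593) and Cdkn1a (adjusted p = 0.0822) were lost.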
